A study of Bos taurus with 81 samples.

Results

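The regions described here are 29366 bins of 1 kb that carried H3K4me3 in oocytes and early cleavage embryos of cattle and had lost it from the morula onward. Autosomes 1 to 29 were divided into 2488055 bins, and a bin was counted as marked in a library when the peaks called for that library covered at least 50% of it. Members were chosen by their H3K4me3 peaks alone: a bin had to be marked in both libraries of germinal vesicle oocytes (GV), of 2-cell embryos (2C) and of 4-cell embryos (4C), which are the 6 early lists, and in none of the 8 late lists. The late lists are those of the morula (MO), of the whole blastocyst (BL), and of its parts, the inner cell mass (ICM) and the outer trophectoderm (TE). Members were 1.18% of the autosomal bins and 59.9% of the 48997 bins marked in all 6 early lists. Of the others, 12124 (24.7%) were marked in all 14 lists and are called kept bins, and 7507 (15.3%) were marked in some late lists and not in others.

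The 4 histone marks H3K4me3, H3K27ac, H3K27me3 and H3K9me3 were mapped with CUT&Tag, where a transposase tethered by an antibody cuts and tags DNA near the modified histone. Each mark had 2 libraries in each of 9 groups, and open chromatin was profiled by ATAC-seq with 3 libraries each of BL, ICM and TE. Oocytes came from slaughterhouse ovaries and were taken before maturation, and embryos were fertilized and cultured in vitro with no inhibitor. Times from insemination were 32 h for 2C, 44 h for 4C, 56 h for 8-cell embryos (8C), 122 h for MO and 172 h for BL. The ninth group, 8A, was 8-cell embryos of 56 h cultured with 50 µg/ml α-amanitin, an inhibitor of RNA polymerase II, which asks how far the chromatin changes depend on embryonic transcription. ICM was isolated by immunosurgery and TE was cut off with a blade, so each library is a pool of many oocytes or embryos, and BL, ICM and TE share cell types. A bin marked in part of the cells and one marked weakly in all of them cannot be told apart in such pools.

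H3K4me3 marks promoters of active genes in most cells, and in mammalian oocytes it also spreads over regions away from promoters, where it is removed around the time when the embryonic genome is activated. H3K27ac is found at active promoters and enhancers. H3K27me3 is placed by Polycomb repressive complex 2 and H3K9me3 by another group of methyltransferases, and both are associated with silent chromatin, H3K9me3 chiefly with repeats and heterochromatin. Major genome activation in cattle falls around the 8-cell stage, between the groups that define the start and the end of the pattern.

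The 81 lists differed in size, and read depth is not given by the lists. H3K4me3 lists held 22745 to 185272 peaks and covered 37.7 to 176 Mb of the autosomes, with the late lists at the short end. H3K27ac lists covered 43.4 to 142 Mb, H3K27me3 lists 110 to 281 Mb, H3K9me3 lists 96.6 to 188 Mb and ATAC lists 80.8 to 117 Mb. The share of members by stage is therefore given beside the share of all autosomal bins in the same libraries. The labels do not say that the libraries of a group came from separate collections, so the p-values measure the spread between libraries, which may be technical. Tests over several stages count each library as a unit, although libraries of a stage mostly lay close together and BL holds ICM and TE cells. Such p-values can be smaller than stages as units could give, and they do not measure the spread between stages.

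The values that chose the members are a description only. Most members lay well clear of the late limit, since 27251 of them (92.8%) had no base under an H3K4me3 peak in any late list. The early limit was closer: 8149 members had a lowest early coverage of 50% to under 60%, and 9938 bins with 40% to under 50% and no late mark stayed just outside. At the late limit, 645 members had a highest late coverage of 40% to under 50%, and 786 early-marked bins stayed outside with 50% to under 60%. In GV, members sat in H3K4me3 peaks with a median width of 1.45 and 1.9 kb in the respective libraries, and kept bins in peaks of 1.3 and 1.45 kb.

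Adjoining members formed 19583 runs, of which 13983 (71.4%) were single bins. The longest run was 16 kb, 479 runs reached 5 kb and held 10.2% of the members, and 33 runs reached 10 kb. Kept bins formed 9205 runs, 73.9% of them single bins, with a longest run of 8 kb and 21 runs of 5 kb or more. The median distance from a member to the nearest bin with late H3K4me3 was 17 kb, against 62 kb for all bins in no late list, and 9.64% of the members adjoined such a bin.

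At the 8-cell stage each library still marked most members with H3K4me3, with and without the inhibitor, but 45.5% were in both 8A lists. The 8C libraries marked 57.8% and 86.2% of the members, and the 8A libraries 63.0% and 54.9%. The groups overlapped: the first 8A value lay between the 8C values, and the second was below both. The same libraries marked 97.9% and 99.6% (8C) and 91.7% and 86.8% (8A) of the kept bins, and 2.76% and 4.72% (8C) and 2.36% and 1.98% (8A) of all autosomal bins. In counts, 16448 members (56.0%; all bins 2.54%) were marked in both 8C lists and 3538 (12.0%; all bins 95.1%) in neither, while 13370 (45.5%; all bins 1.54%) were marked in both 8A lists and 8133 (27.7%; all bins 97.2%) in neither.

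The mean share of members was 13.1 percentage points lower in 8A than in 8C, which did not exceed the spread between libraries (exact two-sided permutation test, p = 0.667). The smallest p that 2 libraries against 2 allow is 0.333. The direction depended on 1 list and on the scale. The second 8C list covered 112 Mb of the autosomes, against 68.6 Mb for the first and 60.4 and 52.2 Mb for the 8A lists, and without it 8A was 1.17 points higher. Relative to all autosomal bins the mean log2 ratio was 4.76 in 8A and 4.29 in 8C, which is 0.47 higher in 8A (exact permutation p = 0.333). When every list was trimmed to the same covered length, keeping the peaks with the highest scores, the members by those lists were marked at 66.2% and 70.2% in 8C and at 83.3% and 81.0% in 8A.

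Among individual bins, 10813 members (36.8%; all bins 1.33%) were marked in both 8C and both 8A lists and 2457 (8.37%; all bins 94.8%) in none of the 4. Members in both 8C lists and no 8A list numbered 1832 (6.24%; all bins 0.627%), and those in no 8C list and both 8A lists numbered 253 (0.862%; all bins 0.0295%). Over the 4 libraries, members were marked less often than kept bins by 28.6 points, in 4 of 4 libraries (exact sign-flip permutation test, p = 0.125, the smallest that 4 libraries allow, adjusted 0.143). Kept bins were required to carry late H3K4me3 and members to lack it, which favours this direction.

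**Figure D1:**
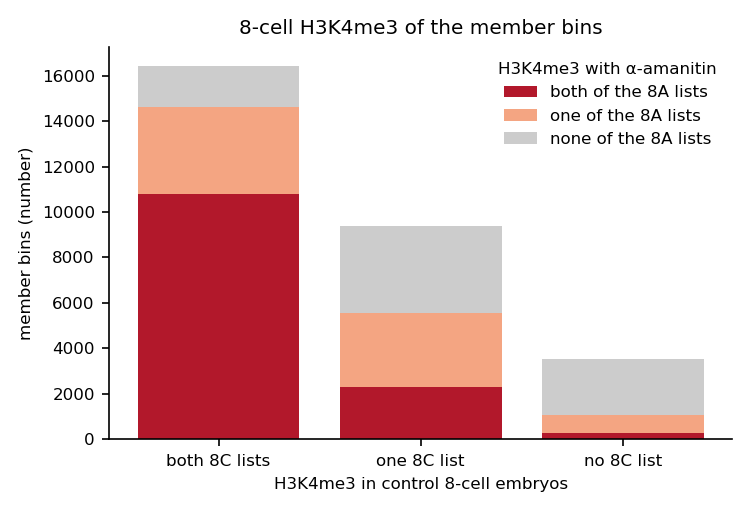
Number of member bins (y axis) by their H3K4me3 in control 8-cell embryos (x axis: both, 1 or none of the 8C lists), with colours for both, 1 or none of the lists of α-amanitin-treated 8-cell embryos. The tall red segment is the 10813 members marked in all 4 lists, and the grey segment at the right is the 2457 marked in none.

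H3K27ac accompanied H3K4me3 on part of the members in oocyte and cleavage stages and was nearly gone in the blastocyst. The libraries marked 26.9% and 31.2% of the members in GV (all bins 5.05% and 6.05%), 45.1% and 54.6% in 2C (all bins 2.34% and 2.91%), and 24.2% and 26.1% in 4C (all bins 1.26% and 1.36%). In 8C the shares were 16.2% and 15.1% (all bins 3.88% and 3.84%) and in MO 5.85% and 6.32% (all bins 4.54% and 4.74%). They were 1.02% and 1.2% in BL (all bins 1.91% and 2.15%), 4.21% and 3.44% in ICM (all bins 4.11% and 3.83%), and 1.73% and 1.78% in TE (all bins 2.28% and 2.4%). In MO and ICM the members were thus close to the genome's level, and in BL and TE below it. Every late library was below every early library, and both 2C libraries were above all others without inhibitor.

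Relative to all autosomal bins, the mean log2 ratio of H3K27ac was 3.63 ± 0.96 (SD, n = 6 libraries) early and −0.24 ± 0.50 (n = 8) late. The difference of −3.87 exceeded the spread between libraries (exact two-sided permutation test over 3003 arrangements, p = 0.000333, the smallest possible, adjusted over the 3 marks 0.000333). That test treats the libraries of a stage as independent, and with stages as units far fewer arrangements would exist. Members were also required to carry H3K4me3 early and to lack it late, which favours a fall of H3K27ac. The early-against-late test and the stage test that follows are thus not independent of the choice. Differences between the 8 stages without inhibitor took 99.95% of the sum of squares of this log2 ratio (permutation test, p = 1e-05, adjusted 1.5e-05). Of the kept bins, 61.1% to 82.0% were marked in the late libraries, and members lay 65.5 points lower in 8 of 8 libraries (exact sign-flip permutation test, p = 0.00781, adjusted 0.0156). Members and kept bins were chosen by opposite late H3K4me3, so this direction was largely set by the choice. Differences between them in the other late marks are not independent of it either. Early, members were 13.1 points lower on average but higher in 2C, and the difference did not pass the test (exact permutation p = 0.375, adjusted 0.375). It was −6.003 points without the first GV library and −6.58 points without the second.

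In the α-amanitin group, more of the members were under H3K27ac peaks in each library than at 8C. The 8A libraries marked 54.7% and 55.5% of the members, 39.4 points above the 8C mean, while the share of all bins was alike (3.85% and 4.13% in 8A, 3.88% and 3.84% in 8C). Both 8A libraries lay above both 8C libraries, and the exact permutation p was 0.333, the smallest that 2 against 2 allow, also after adjustment over the 3 marks. The gap was present among members with and without H3K4me3 in 8C. Of members in both 8C H3K4me3 lists, 66.0% and 66.7% were acetylated in 8A against 20.8% and 19.3% in 8C, and of members in neither list 29.8% and 29.5% in 8A against 7.18% and 7.07% in 8C.

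H3K27me3 covered most members in the oocyte, fewer at cleavage, and most of them again from the morula onward. It marked 68.4% and 66.3% of the members in GV (all bins 9.55% in each), 15.6% and 19.4% in 2C (all bins 4.42% and 5.26%), 22.9% and 21.01% in 4C (all bins 6.3% and 5.76%), and 23.6% and 23.1% in 8C (all bins 5.5% and 5.61%). From there the shares were 71.8% and 71.1% in MO (all bins 6.55% and 6.001%), 84.6% and 84.0% in BL (all bins 10.9% and 11.3%), 79.1% and 77.0% in ICM (all bins 9.88% and 9.89%), and 84.4% and 83.8% in TE (all bins 10.8% and 11.2%). The MO, BL, ICM and TE values lay above all GV values, and all cleavage values lay far below both.

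The mean log2 ratio to all bins was 2.18 ± 0.50 (SD, n = 6) early and 3.09 ± 0.26 (n = 8) late. With libraries as units, the difference was 0.91 (exact permutation p = 0.000333, the smallest possible, adjusted 0.000333). The early and late groups are those by which H3K4me3 chose the members. This difference in H3K27me3 is therefore not independent of the choice. By stage the mean ratio was 2.82 in GV, 1.85 in 2C and 1.87 in 4C. It was 3.51 in MO, 2.92 in BL, 2.98 in ICM and 2.94 in TE. Relative to the genome, GV was thus close to the blastocyst groups, and 2C and 4C were low. Stage differences took 99.70% of its sum of squares (permutation p = 3e-05, adjusted 3e-05). Kept bins were marked at 14.7% to 18.6% late, so that members were 62.9 points higher in 8 of 8 libraries (exact sign-flip permutation p = 0.00781, adjusted 0.0156). Early, members were 29.5 points higher in 6 of 6 libraries (exact permutation p = 0.0312, adjusted 0.0417). Without any single early library the adjusted p was 0.0833, and 5 libraries cannot reach below 0.0625.

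In bins, 24181 members (82.3%; all bins 9.66%) carried H3K27me3 in both BL lists, 18087 (61.6%; all bins 3.83%) in all 8 late lists, and 2619 (8.92%; all bins 83.7%) in none of these. In GV, 18645 members (63.5%; all bins 7.28%) had H3K27me3 in both lists together with the H3K4me3 that defines them. The most frequent of the courses counted was H3K27me3 in both GV lists, in no 2C or 4C list and in all late lists, with 8055 members (27.4%; all bins 1.54%). A course with the mark in every GV, 2C, 4C and late list was found in 2696 members (9.18%; all bins 0.389%). Another 2377 (8.09%; all bins 0.777%) had the mark in no GV, 2C or 4C list and in all late lists.

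Oocyte H3K27me3 separated the members in several later readouts. Members with it in both GV lists are compared here with the 8440 (28.7%; all bins 88.2%) in no GV list. The 2281 (7.77%; all bins 4.54%) in a single GV list are left out. Of the first, 92.1% and 91.6% carried H3K27me3 in BL, against 68.2% and 67.6% of the second. For H3K9me3 in TE the shares were 71.9% and 71.3% against 33.5% and 34.0%. ATAC-seq went the opposite way, with 6.28% to 15.9% of members with GV H3K27me3 under BL peaks against 13.0% to 27.8% of members in no GV list. No test was run on this split, and these readouts were not split in the same way for all bins. Whether the split separates members more than it does the genome at large is thus not known. In GV itself, 15332 members (52.2%; all bins 6.65%) had H3K27me3 in both lists and H3K27ac in neither, 4548 (15.5%; all bins 3.65%) had the reverse, and 1493 (5.08%; all bins 0.254%) had both marks in all lists.

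H3K9me3 was almost absent from the members in the oocyte and was on close to every other member in the blastocyst. It marked 1.09% and 1.45% of the members in GV, below the 7.54% and 7.47% of all autosomal bins in the same libraries. The shares were 10.8% and 11.7% in 2C (all bins 5.09% in each), 23.6% in each 4C library (all bins 6.56% and 7.12%) and 26.0% and 23.2% in 8C (all bins 6.76% and 6.73%). They were 27.1% and 33.2% in MO (all bins 4.58% and 5.76%), 47.9% and 55.9% in BL (all bins 4.03% and 5.38%), 33.2% and 41.4% in ICM (all bins 3.88% and 5.13%), and 59.2% and 58.9% in TE (all bins 6.16% and 6.2%). Every late library lay above every early one, and the higher MO and the lower ICM library were both at 33.2%.

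The mean log2 ratio of H3K9me3 to all bins was 0.12 ± 2.11 (SD, n = 6) early, negative in GV and positive in 2C and 4C, and 3.08 ± 0.37 (n = 8) late. The difference of 2.96 exceeded the spread between libraries counted as units (exact permutation p = 0.000333, the smallest possible, adjusted 0.000333). As for H3K27me3, it is not independent of the choice of members by early and late H3K4me3. Stage differences took 99.74% of the sum of squares (permutation p = 1e-05, adjusted 1.5e-05). Only 1.62% to 5.11% of the kept bins were marked late. Members were 41.7 points higher in 8 of 8 late libraries (exact sign-flip permutation p = 0.00781, adjusted 0.0156) and 11.3 points higher in 6 of 6 early libraries (p = 0.0312, adjusted 0.0417, exact permutation). As for H3K27me3, the early result had an adjusted p of 0.0833 without any single library. In all 8 late lists 5458 members (18.6%; all bins 1.11%) were marked, and in none 9402 (32.0%; all bins 87.6%).

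The repressive marks were also on more members in the 8A libraries. H3K27me3 marked 33.2% and 33.8% in 8A (all bins 5.82% and 6.14%), 10.2 points above 8C, and H3K9me3 marked 35.2% and 34.6% (all bins 7.28% and 7.2%), 10.3 points above 8C. The share of all bins was also higher in 8A than in 8C, and relative to it the difference was 0.41 on the log2 scale for each mark. Both 8A libraries of each mark lay above both 8C libraries, and each exact permutation p was 0.333, the smallest possible. TE exceeded ICM in H3K9me3 on members by 21.8 points, and by 0.20 in the log2 ratio to all bins, since TE lists also marked more of the genome. These too had an exact permutation p of 0.333, the smallest possible, which was 0.333 after adjustment over the 3 marks for the share.

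**Figure D2:**
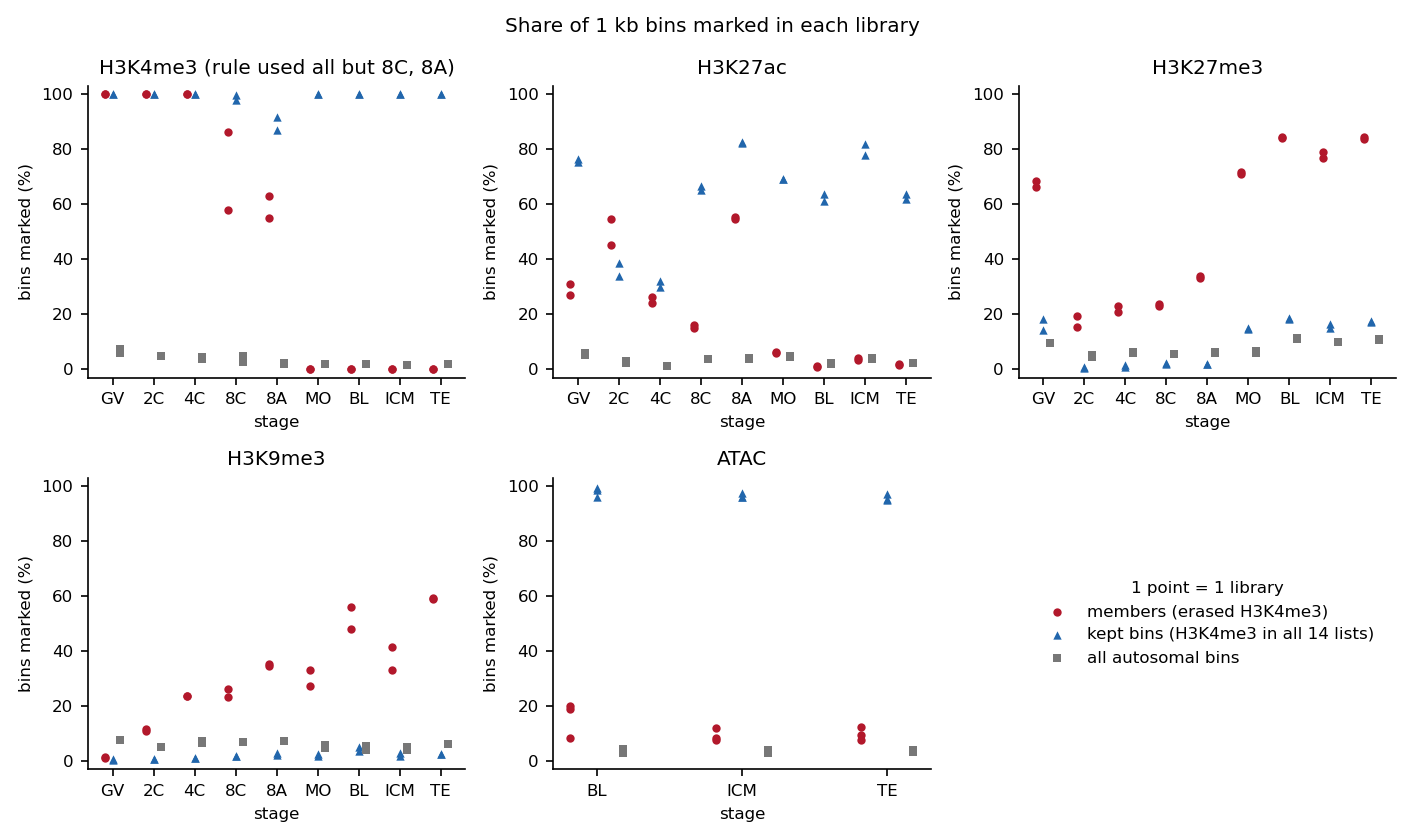
Percent of bins marked (y axis) by stage (x axis) for the 4 histone marks and ATAC-seq, with 1 point per library for members (red circles), kept bins (blue triangles) and all autosomal bins (grey squares). Members fall to 1.02% and 1.2% for H3K27ac in BL and rise to 84.6% and 84.0% for H3K27me3, while kept bins are at 61.1% and 63.7% for H3K27ac and at 18.3% and 18.6% for H3K27me3 there.

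Repressive marks met on the same bins. In BL, 13205 members (45.0%, against 2.57% of all bins) had H3K27me3 and H3K9me3 in both lists of each. Another 10976 (37.4%, against 7.09% of all bins) had H3K27me3 in both lists but not H3K9me3 in both. The reverse held for 256 (0.872%, against 0.876% of all bins), a share like that of all bins. Bins with the other mark in a single list are included in these last counts. Members with both marks numbered 7371 (25.1%; all bins 1.66%) in MO, 8829 (30.1%; all bins 1.85%) in ICM and 15769 (53.7%; all bins 3.88%) in TE. In all 8 late lists of each mark the count was 5290 (18.01%; all bins 0.787%). Of members with H3K27me3, 54.6% also had H3K9me3 in BL, compared with 26.6% of all bins with H3K27me3. In 4C the corresponding values were 86.1% and 82.9%, so there the share was near that of the genome.

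Some members took on neither repressive mark. In no late list of H3K27me3 or H3K9me3 were 2411 members (8.21%; all bins 79.3%), and 728 of all members (2.48%; all bins 71.2%) had no H3K27me3, H3K9me3, H3K27ac or ATAC peak in any late list. ATAC-seq peaks covered 7.60% to 19.8% of the members over the 9 libraries, above the 2.84% to 4.43% of all bins and far below the 94.7% to 99.1% of the kept bins. Members lay 85.0 points under the kept bins, in 9 of 9 libraries (exact sign-flip permutation p = 0.00391, adjusted 0.0156). Here too the sets were chosen by opposite late H3K4me3, so the direction was largely set by the choice.

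Members that still carried H3K4me3 in 8C were more often covered by repressive marks in the late libraries, and for H3K27me3 already in the oocyte. In GV, H3K27me3 marked 74.2% and 71.9% of members in both 8C lists against 55.1% and 53.8% of those in neither, a gap about as wide as the late ones. For H3K27me3 in BL, 88.7% and 88.0% of members in both 8C lists were marked, against 73.8% and 73.9% of those in neither. H3K9me3 in BL was at 56.6% and 63.8% against 27.8% and 37.9%. Over the late libraries the difference was 17.5 points for H3K27me3 and 21.4 points for H3K9me3, in 8 of 8 libraries each (exact sign-flip permutation p = 0.00781, adjusted over 4 assays 0.00781). All these libraries were read on the same bins and come from MO, BL, ICM and TE. With these 4 groups as units, a sign-flip permutation test could give no p under 0.125. Without the second 8C H3K4me3 library, the long list named above, the differences were 11.3 and 14.4 points. Among members outside the last 2 Mb of the autosomes, a setting chosen after seeing the data, they were 15.1 and 17.3 points. H3K27ac was lower by 1.87 points in 8 of 8 libraries (p = 0.00781, adjusted 0.00781, exact permutation), with 0.73% and 0.86% against 1.89% and 2.32% in BL. Without the second 8C H3K4me3 library the difference was −1.19 points, and in bins of 2 kb −0.77 points. ATAC was higher by 4.41 points in 9 of 9 libraries (exact permutation p = 0.00391, adjusted 0.00781), and by 2.42 points among members more than 5 bins from late H3K4me3. All autosomal bins were not split by 8C H3K4me3 in this way. Whether the split separates members more than the genome at large is thus not known.

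**Figure D3:**
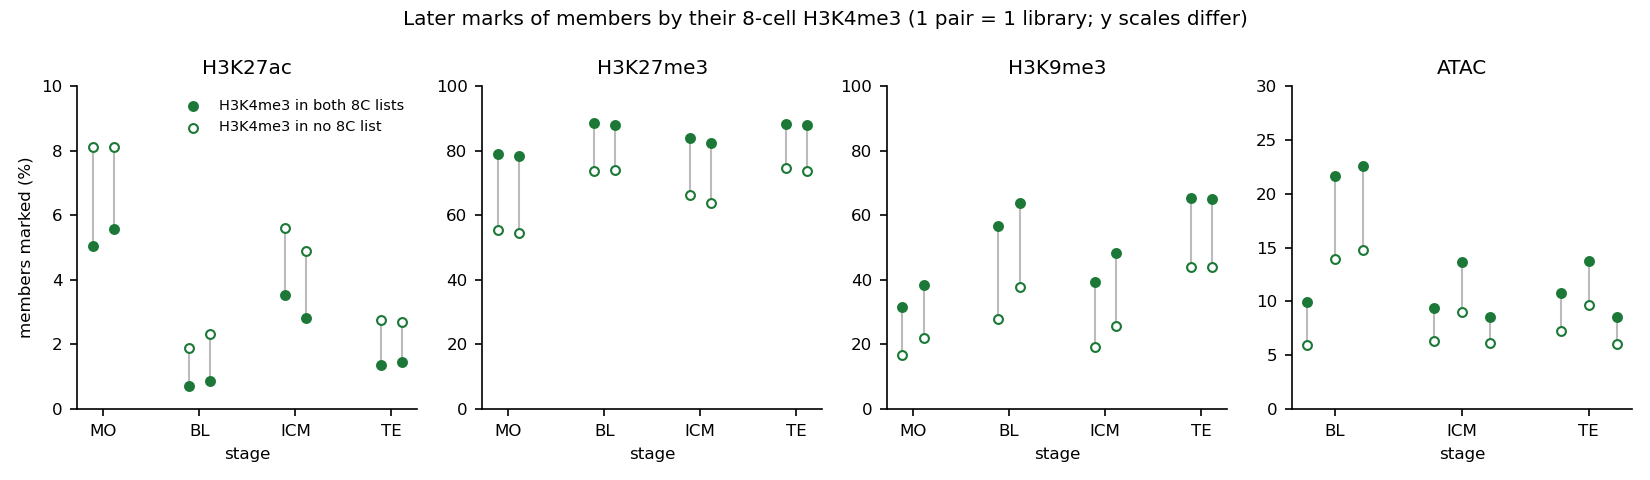
Percent of members marked (y axis) by stage (x axis) for members with H3K4me3 in both 8C lists (filled) and in neither (open), where each joined pair is 1 library. The H3K27me3 and H3K9me3 panels share a y scale, and the H3K27ac and ATAC panels have shorter ones that differ. In the H3K27me3 and H3K9me3 panels the filled points are the upper ones in each of the 8 pairs, and in the H3K27ac panel the open ones are.

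Around the runs, mean coverage by BL H3K27me3 was 80.2% in the central bin and 58.6% at 10 kb, so the mark reached well past the members. For GV H3K4me3 it was 87.2% and 33.7%, where the central value is set by the way members were chosen. Members sat in H3K27me3 peaks with a median width of 27.8 and 29.4 kb in BL, wider than the 17.4 kb of all marked bins in each library. GV H3K9me3 was 1.12% at the centre and 5.26% at 10 kb, so the oocyte mark dipped at the members, whereas in BL it was 46.6% at the centre and 31.5% at 10 kb. Cleavage H3K27me3 was nearly flat, at 17.7% and 17.4% in 4C.

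**Figure D4:**
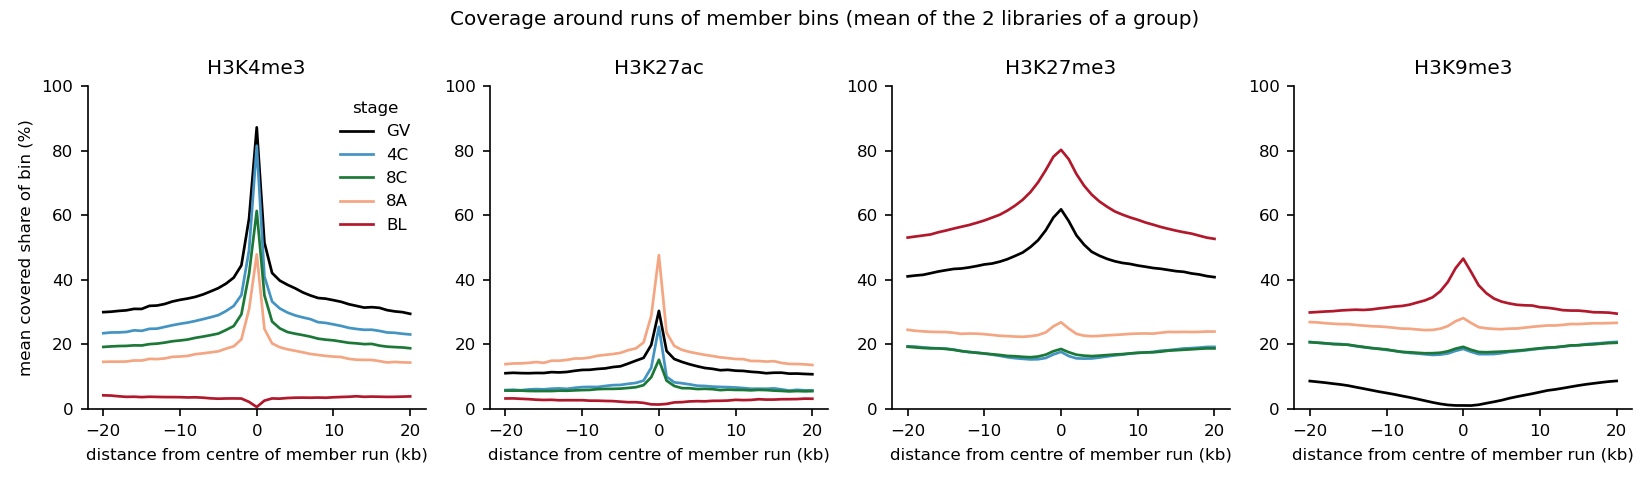
Mean percent of a 1 kb bin covered by peaks (y axis) against distance in kb from the centre of a member run (x axis), for 4 marks and 5 stages, averaged over both libraries. GV and BL H3K27me3 form broad peaks of 61.8% and 80.2% at the centre, and GV H3K9me3 dips to 1.12%.

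Members were concentrated near the far ends of the chromosomes. The last 2 Mb of the autosomes held 6317 members (21.5%) but 2.33% of all bins, 5.00% of the kept bins and 7.58% of the other early-marked bins. Density there was 109 members per Mb against 9.48 elsewhere, 11.5 times higher, and 2.20 times higher for kept bins. The share exceeded an even spread in 28 of 29 autosomes, with a median of 22.2%, a highest value of 47.5% on chromosome 20 and a lowest of 1.82% on chromosome 7. The exception was chromosome 18, with 2.74% of its members there, less than the part of its length. The first 2 Mb held 978 members (3.33%). Bovine autosomes are acrocentric, with the centromere next to an end of the chromosome.

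The far ends were rich in peaks of several marks, whether or not a bin was a member. In the last 2 Mb, 21.9% and 25.7% of all bins had H3K4me3 in GV, 41.8% and 41.5% had H3K27me3 in BL and 41.8% and 39.9% had H3K9me3 in TE; the part of this in the results for the members was not tested. Members there had more of the later marks than the rest: 94.8% and 94.1% against 81.8% and 81.3% for BL H3K27me3, and 83.5% and 81.8% against 52.5% and 52.6% for TE H3K9me3. Without the members of the last 2 Mb, a setting chosen after seeing the data, the late excess over kept bins was 59.1 points for H3K27me3 and 35.3 points for H3K9me3. In each case the exact sign-flip permutation p was 0.00781. Kept bins of the last 2 Mb were not left out. H3K4me3 marked 75.7% and 94.8% of members at the ends against 52.8% and 83.9% elsewhere in 8C, and 85.0% and 79.4% against 56.9% and 48.1% in 8A. All bins were also marked more often there. In 8C the shares were 17.1% and 25.9% in the last 2 Mb, against 2.76% and 4.72% over the autosomes. In 8A they were 18.7% and 16.6%, against 2.36% and 1.98%.

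**Figure D5:**
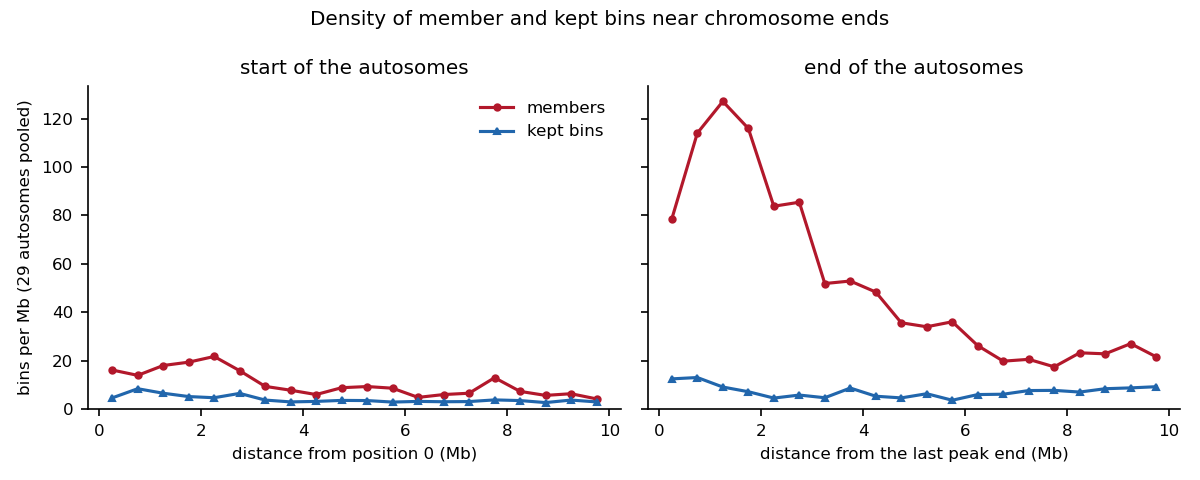
Density of bins per Mb pooled over 29 autosomes (y axis) against distance in Mb from position 0 (left) and from the last peak end (right), in steps of 0.5 Mb, for members (red) and kept bins (blue). Members reach 127 per Mb at 1.25 Mb from the far end, while kept bins stay below 13.1 per Mb there.

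Individual runs show the course in detail. Coordinates are those of the deposited lists on ARS-UCD1.2, percentages are the part of a run under peaks, and the annotation of that build was not used here, so no gene is given. The longest run, chr3:120167001-120183000, was 93.4% and 97.8% covered by H3K4me3 in GV, 85.0% and 98.8% in 8C and 92.8% and 93.8% in 8A, with none in the late libraries. H3K27ac was at 0% in 8C and at 51.9% and 68.8% in 8A. H3K27me3 covered it fully in GV and in all late libraries and H3K9me3 covered none of it in GV and all of it from 4C on.

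The second run of that length, chr4:249001-265000, lies near position 0 of its chromosome. It was fully under H3K27me3 in every library, GV and cleavage included, while H3K4me3 covered 92.2% and 94.7% in GV and 96.9% and 100% in 8C. H3K27ac was at 77.5% and 87.5% in 8C and at 80.6% and 85.6% in 8A, so that these peaks overlapped those of H3K27me3. The third, chr22:58749001-58764000, was at 92.7% and 95.7% for GV H3K4me3, with H3K27me3 and H3K9me3 covering all of it in every late library. These 3 runs were also the longest among those with H3K27me3 in all late lists (10691 such runs) and with H3K9me3 in all late lists (2933 such runs).

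H3K9me3 differed between the embryonic lineages on other long runs. At chr2:136042001-136056000, H3K27me3 was complete in GV, absent from 2C, and complete again in every MO, BL, ICM and TE library. H3K9me3 there was 97.1% and 100% in TE, 78.6% and 97.1% in BL and 0% in both ICM libraries. The run chr29:49165001-49180000 was also complete for H3K9me3 in TE and at 0% in ICM, with 22.7% and 92% in BL. Its earlier course differed, with 98.7% in 4C, 100% in 8C and 0% in MO. The chr2 run had 0% in 4C, 18.6% and 20% in 8C and 0% in MO. The run chr3:120062001-120076000 was complete in all of MO, BL, ICM and TE.

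The longest runs with acetylation in both 8C lists were mostly near chromosome ends. At chr15:84878001-84886000, H3K27ac covered 47.5% and 75% in GV and 100% in both 8C libraries, and was 0% in every late library, under complete late H3K27me3. At chr2:184001-190000, H3K27ac covered 93.3% and 100% in 8C and H3K9me3 was complete already in GV. The run chr18:53709001-53715000, 12.1 Mb from its chromosome end, had no H3K9me3 in any library and no H3K27me3 from 2C to 8A. H3K27me3 covered 100% of it in MO, BL and TE and 80% and 93.3% in ICM, and ATAC peaks covered 25% to 40% in BL.

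Among runs marked in both 8C and both 8A H3K4me3 lists (4551 runs), the longest were chr17:73040001-73051000, chr29:49529001-49540000 and chr6:117348001-117356000, at 11, 11 and 8 kb. In the first, H3K27ac was 6.82% and 12.3% in 8C and 83.6% and 84.5% in 8A. In the third the later H3K27me3 was incomplete, with 30% and 40% in BL, 0% in ICM and 77.5% and 95.0% in TE. Runs in both 8C lists and no 8A list (1091 runs) were at most 2 kb long. The run chr2:134427001-134429000 had H3K4me3 at 57.5% and 95.0% in 8C and 2.50% and 5.00% in 8A. At chr3:23573001-23575000, H3K4me3 was at 55.0% and 87.5% in 8C and 15.0% and 27.5% in 8A, and neither H3K27me3 in any library nor H3K9me3 in any late library followed. At chr7:16798001-16800000, with 60% and 77.5% in 8C and 12.5% and 32.5% in 8A, both repressive marks were complete in all late libraries.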

How the data were processed

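Peaks were called separately for each library by the authors, and the deposited lists give each peak's position and a score whose meaning is not given in the sources used here. Per the submitters' processing notes, the build was ARS-UCD1.2, and the tools were BWA 0.7.9a, SICER, SAMtools 1.9, Picard 2.26.10, and Trim Galore 0.4.0 with cutadapt 1.8.3. The score served only to trim lists. Peak ends lie 1 base short of a 50 bp grid and were moved to it.

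Coverage of 1 kb bins was computed with Python 3.11.15 and NumPy 2.4.6, and a count of 0.5 was added to both counts in log2 ratios. Permutation tests were exact or used 100000 resamples, with Benjamini-Hochberg adjustment and a threshold of 0.05, and the code was tested on simulated data. Runs were named by length within mark classes. The members, lists and tests were chosen with earlier results of these data known. X and unplaced scaffolds were left out, and 0 of 45 replicate pairs were identical.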

Additional observations from a re-analysis of the deposited data

Results flagged for a closer look

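The member rule was also applied to sequence outside the autosomes, which no comparison used. On X, 284 bins met it, which is 0.204% of the X bins and 36.4% of the 781 X bins marked in all 6 early H3K4me3 lists. H3K27me3 marked 77.8% and 81.7% of these X bins in BL (all X bins 6.83% and 9.07%). H3K9me3 marked 10.2% and 11.3% in GV (all X bins 7.15% and 6.5%) and 67.6% and 70.4% in TE (all X bins 6.29% and 6.4%).

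On unplaced scaffolds 471 bins met the rule, 51.4% of the 917 early-marked ones. H3K9me3 was already on 57.5% and 59.9% of them in GV (all unplaced bins 7.6% and 7.04%) and on 90.4% and 93.6% in BL (all unplaced bins 28.3% and 23.2%). H3K27me3 was on 91.7% and 91.3% in GV (all unplaced bins 6.85% and 7.01%).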

How the results depend on the processing

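The number of members depended on how a bin was called: it was 51063 at 25% coverage, 13188 at 75%, 12751 in bins of 2 kb and 4939 with lists trimmed to one covered length, and 29403 to 35648 when 1 library was left out. The 8A minus 8C share of H3K4me3 changed sign with trimmed lists (13.95 points) and as a log2 ratio (0.47), and ran from −27.3 to 1.17 points without 1 library. The early excess of members over kept bins ran from 25.0 to 32.5 points for H3K27me3 and from 9.06 to 13.4 points for H3K9me3, with an adjusted p of up to 0.0833. Over all results with a test, 443 values without 1 library and 153 under other settings kept their direction and side of the threshold, among them those for members outside the last 2 Mb and members more than 5 bins from late H3K4me3, both chosen after seeing the data. Against all early-marked bins, which include the members, differences kept their calls but were smaller, late at 19.1 points for H3K27me3, 14.3 for H3K9me3, −19.1 for H3K27ac and −29.8 for ATAC, and early at 9.62 for H3K27me3 and 4.08 for H3K9me3. The H3K27ac difference by 8C H3K4me3, −1.87 points, ran from −1.98 to −1.19 without 1 library and from −1.69 to −0.77 under other settings. Replicate numbers did not pair the samples: over 28 pairs of groups per mark the correlation of deviations ran from −0.0416 to 0.0365. With the replicate block, the exact p was 0.000816 for early against late in each mark (differences −3.87, 0.91 and 2.96) and 1 for 8A against 8C (−13.1 points), and the stage shares were 99.95%, 99.70% and 99.74% with p up to 9e-05; no call changed. Read depth is unknown, so a bin outside a list may be unmarked or below detection, and 2 libraries per group allow no p under 0.333 between groups.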

Other observations

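Members were unevenly spread over the autosomes. Their density was 30.8 per Mb on chromosome 25, 25.6 on chromosome 29 and 24.4 on chromosome 19, with a median of 11.9 over the 29 autosomes, and 5.10 on chromosome 1, 5.87 on chromosome 10 and 5.97 on chromosome 7. The part of the early-marked bins that were members varied less, from 37.8% on chromosome 7 to a median of 61.5% and a highest value of 72.5%. Of the 1633 windows of 1 Mb that held members, chr11:105000001-106000000 held 329, chr5:118000001-119000000 held 295 and chr29:49000001-50000000 held 259; these windows were chosen after their values were seen.

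Members fully covered by H3K4me3 in all 6 early lists numbered 1878. Of these, 91.1% carried H3K27me3 in both BL lists (all bins 9.66%) and 89.8% carried H3K4me3 in both 8C lists (all bins 2.54%). Members with the lowest early coverage, 50% to under 60%, had 76.7% and 36.3%. Bins just outside, with 40% to under 50% and no late mark, had 72.7% and 26.1%. Early coverage is a value the rule used, so this split is a description only.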
